A study of Mus musculus with 8 samples.

Results

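Chromatin enzymes and remodellers are described here in satellite cells, the stem cells of skeletal muscle, before and after muscle injury. They are the 71 genes whose array name is Eed, Suz12, Ezh1 or Ezh2, begins with Setd or Smarc, or is Hdac, Sirt, Prmt, Chd or Cbx followed by a digit. They have 104 of the 55681 probes and are 71 of the 21750 genes named on the array. Of these, 63 genes had a probe clearly above background in at least 1 group and were among the 13646 genes tested. The other 8, named with their classes, were too dim to test. The current symbol of 2 genes differs from the array name: Kmt5a is on the array as Setd8 and Prmt9 as Prmt10.

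The study compared satellite cells from basal muscle (n = 4 arrays) with satellite cells from muscle 3 days after injury by CTX, cardiotoxin, a toxin of snake venom that kills fibres (n = 4 arrays). All mice were labelled as C57BL/6 males aged 3 months, with no genetic change named. Cells of both groups were sorted as integrin alpha 7 positive and negative for CD31, CD45, CD11b and Sca1, and their total RNA was labelled with Cy3 and hybridised to 1-colour Agilent arrays. Each array is a labelled biological replicate, and the labels state neither pooling nor the number of mice behind a sort. The dye field of injured 4 reads Cy4, while its labelling protocol names Cy3.

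DNA in the nucleus is wound on histones, and the genes described here change how tightly. Methyltransferases, acetyl-removing deacetylases and the proteins that bind the resulting marks set which genes can be read, while remodellers use ATP to slide, eject or exchange histones. In satellite cells, Polycomb enzymes, class II deacetylases and SWI/SNF complexes are known as regulators of the passage from rest through division to muscle differentiation.

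Values are log2 of the processed spot signal minus the 75th percentile of the array, so that 0 is the signal of the 75th percentile probe. Differences are injured minus basal on that scale, with moderated standard errors (SE) from limma and Benjamini-Hochberg adjustment over all 13646 genes. A gene was called at an adjusted p under 0.05. Of all genes tested, 35.3% were called higher and 24.8% lower in injured samples, and the median difference over all genes was 0.17. Each array had 50.1% to 56.7% of its spots well above background. Pax7, the satellite cell transcription factor, fell by 2.95 ± 0.21 (adjusted p = 1.77e-05), Myod1, the factor of committed muscle cells, rose by 0.77 ± 0.13 (adjusted p = 0.000973), and Mki67, a marker of dividing cells, rose by 2.65 ± 0.42 (adjusted p = 0.000824). Markers of satellite cells were present in both groups, with 3 of 8 called higher and 4 lower. Their summed signal, in units of the 75th percentile signal, was 94.8 to 132 on basal and 73.6 to 81.0 on injured arrays. All basal arrays shared 1 slide and scan and all injured arrays another, so injury, slide and scan cannot be told apart. The signal of Xist, the RNA of the inactive X chromosome, was 3.85, 2.15, -1.12 and -4.97 on basal 1 to 4 and 1.72, 6.37, 6.55 and 6.57 on injured 1 to 4. On injured 2, 3 and 4 the Y-linked genes Ddx3y, Eif2s3y, Kdm5d and Uty were between -5.06 and -4.68, and none was above background there, which goes against the label of male mice. Ddx3y was at -0.76, -0.25, -0.07 and -0.89 on basal 1 to 4, above background on each, and at -2.19 on injured 1. Basal 1, basal 2 and injured 1 thus had both Xist and Ddx3y signal, which also goes against a label of males alone. Injury and sex therefore cannot be told apart in these groups.

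Satellite cells from injured muscle had more signal for 5 of 7 arginine methyltransferases tested, 3 of 4 core genes of the Polycomb methylation complex, both called HP1 proteins and the class I deacetylases other than Hdac8. They had less signal for Ezh1, Cbx6, Setd4, Hdac4, Hdac7, Sirt2, Chd9 and Smarca2, and for Hdac11, which changed sign in the values deposited by the authors. Of the 63 genes tested, 26 were called higher, or 41.3% beside 35.3% of all genes. Another 17 were called lower, or 27.0% beside 24.8% of all genes, and 20 were not called. The 17 include Smarcc1, whose probes disagreed in direction. The values of the groups did not overlap for 45 genes, or 71.4%, against 57.2% of all genes. The share called in either direction was 68.3% against 60.1%. In these counts, Ezh2 and Smarca5 passed the filter for signal above background through the injured arrays only. Hdac4 and Smarca2 passed it through the basal arrays only. The calls of these genes are no further support. The median difference of the 63 genes was 0.13, close to the 0.17 of all genes, and the median size of the difference was 0.86 against 0.70. A call with a difference of 1 or more in size was reached by 29 genes, 19 higher and 10 lower, and by 34.7% of all genes. The count of genes called is read against that background, and the genes are described one class at a time. The called genes went in both directions in most classes.

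In the values deposited by the authors, which are used as a check, 23 of the 63 genes were called higher and 3 lower, where 24.1% and 5.67% of all genes were. The authors' deposited table follows the scanner signal unevenly. Pearson's r across probes was 0.578 on basal 4 and 0.953 on basal 1 (probes are not independent replicates). Its median difference was 1.05 over the 63 genes and 0.47 over all genes, so the medians were not close there. Setd3, Setdb1, Prmt3 and Smarcd2, which are not among the 43 called genes, were called higher there. Of the 43 called genes, 22 kept call and direction there. Ezh1, Ezh2, Cbx6, Hdac3, Hdac5, Hdac7, Hdac8, Sirt6, Chd2, Chd4, Chd9, Smarca2, Smarca5 and Smarcc1 kept their sign and were not called. The other 7, Setd5, Setd7, Prmt6, Hdac10, Hdac11, Chd6 and Chd7, changed sign. Against injured 1 alone, the injured array with the least Xist signal (1.72), all 43 called genes kept their direction. Injured 1 had a part in those calls, so the kept direction is no further check. Xist was at 3.85 and 2.15 on basal 1 and 2, so this was no comparison at equal Xist. The fit with injured 1 alone assumes that the single injured array varies as the basal arrays do. Background correction by normexp, a model of signal and background with an offset of 50 that draws dim values together, kept all 43 calls and directions when followed by the 75th percentile. It made the log2 difference smaller by over 1.5 times for 13 genes, Eed, Ezh2, Suz12, Cbx2, Setd4, Hdac3, Hdac4, Hdac11, Chd1, Chd9, Smarca2, Smarca5 and Smarcb1. Followed by quantile normalization, it kept all 43 directions and 42 calls, without Chd4 (0.10, adjusted p = 0.316), and made 16 differences smaller by over 1.5 times.

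**Figure D1:**
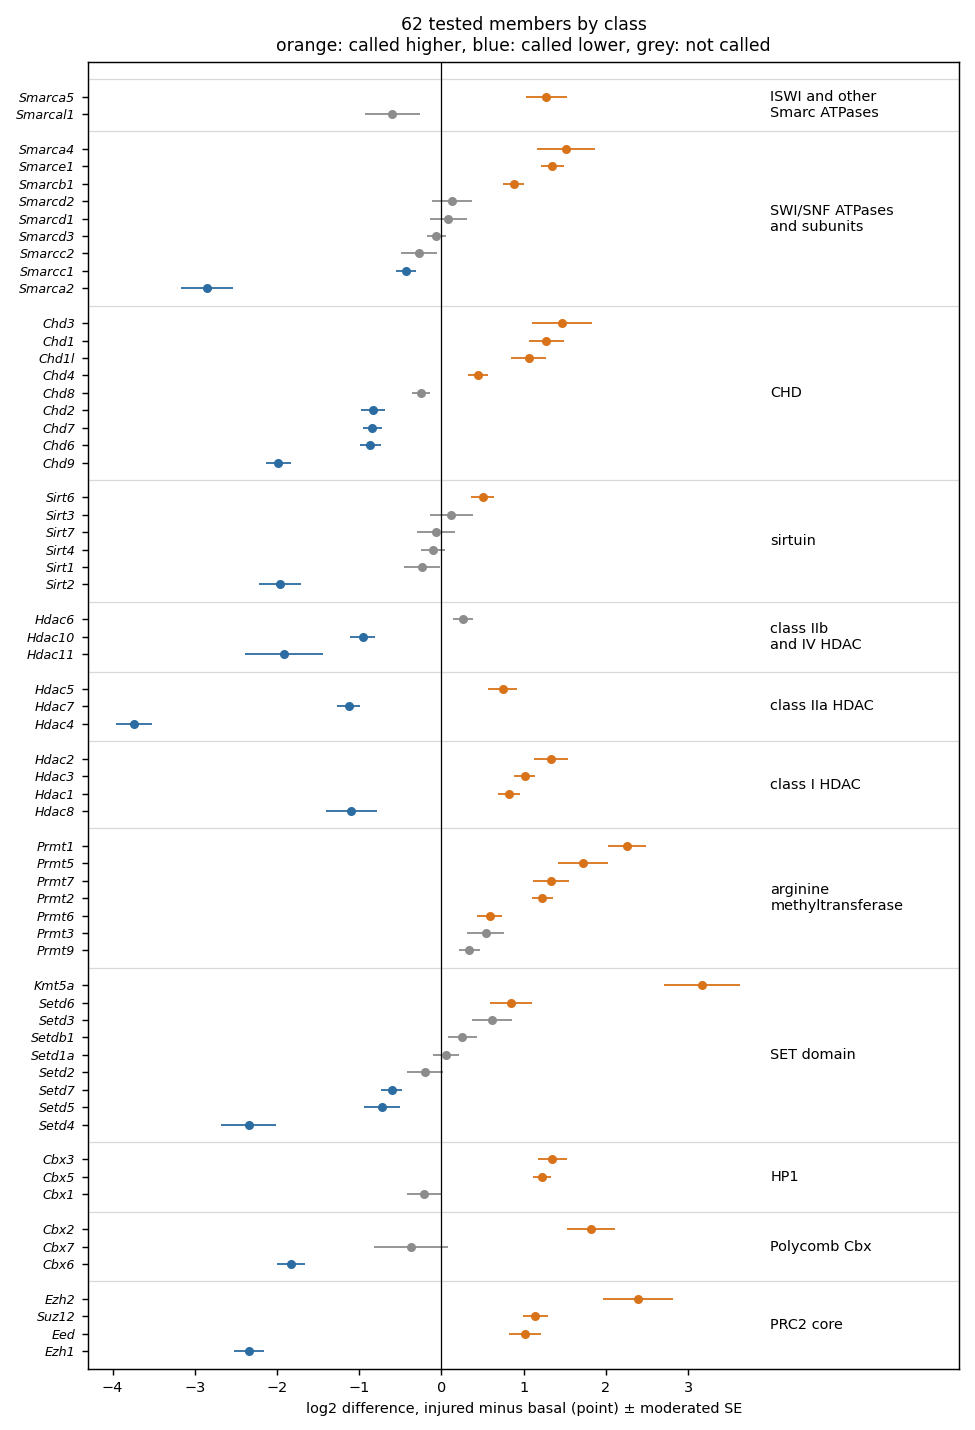
Log2 difference, injured minus basal, with its moderated SE (n = 4 arrays per group) for 62 of the 63 tested genes, grouped by class. Orange points were called higher, blue points lower and grey points were not called. The points run from -3.74 for Hdac4 to 3.17 for Kmt5a, and the 7 arginine methyltransferases lie to the right of 0, which Prmt6 did not in the authors' deposited table.

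The core of Polycomb repressive complex 2 (PRC2) showed opposite differences of its alternative enzymes. PRC2 methylates a lysine of histone H3 at silenced genes. Ezh1 and Ezh2 are its alternative enzymes, Suz12 its scaffold, and Eed the subunit that binds the finished mark. All 4 genes were called, with Ezh1 lower and the other 3 higher.

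The log2 signal of Ezh1, the enzyme typical of resting cells, was 2.38, 2.93, 2.54 and 3.13 on basal 1 to 4 and 0.35, 0.41, 0.29 and 0.55 on injured 1 to 4. Every injured array lay below every basal array, and Ezh1 fell by 2.35 ± 0.18, or 5.08-fold (adjusted p = 2.65e-05). A second probe, above background on all 8 arrays, was also called lower at -1.54 ± 0.22. The remaining probe was above background on every basal and no injured array. For Ezh2, the enzyme of dividing cells, the signal was -1.56, -2.76, -3.73 and -3.46 on basal and -0.41, -0.33, -0.51 and -0.69 on injured arrays. All injured arrays lay above all basal arrays, and Ezh2 rose by 2.39 ± 0.42 (adjusted p = 0.00142). Only 1 basal array was above background for Ezh2, so it passed the filter through the injured arrays. The size of its rise rests on dim basal values, and its call is no further support. Background correction by normexp gave a rise of 0.92.

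Eed was at -0.25, -0.57, -0.92 and -0.33 on basal and 0.59, 0.72, 0.55 and 0.14 on injured arrays. Suz12 was at -1.09, -0.82, -1.01 and -1.32 on basal and 0.23, 0.25, -0.02 and -0.13 on injured arrays. Neither gene's groups overlapped, and Eed rose by 1.02 ± 0.19 (adjusted p = 0.00204) and Suz12 by 1.14 ± 0.15 (adjusted p = 0.000356). In these sorted populations, fewer cells that carry a transcript and less of it per cell cannot be told apart, here and in every result that follows.

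The promoters of these 4 genes and of Kmt5a, Prmt1 and Hdac4 are shown beside a search for 1 short motif. Kmt5a and Prmt1 were picked for display because they hold it. The tables used here held 77 promoters for 61 of the 71 genes, each 300 bases long. Of these, 26 promoters belonged to 20 of the genes called higher and 18 to 14 of the genes called lower. A share of promoters is thus not a share of genes. The E2F core, TTCCCGC or TTGGCGC on either strand, is a motif bound by the E2F factors of the cell cycle. It was found in 7 of 26 promoters of genes called higher (26.9%), those of Cbx3, Ezh2, Kmt5a, Prmt1, Sirt6, Smarcb1 and Suz12. None of 18 promoters of genes called lower held it, and among 21 promoters of genes not called it was in 2, those of Sirt4 and Smarcd1. Of all 32851 RefSeq promoters of this length, 6.81% held it. CCAAT on either strand was in 13 of 26 promoters of higher genes, 6 of 18 of lower genes and 37.4% of all promoters. The motif TTTGAA, known from promoters of genes of cell division, was in 3 of 26, 1 of 18 and 17.9%. A match describes the letters in the window and shows no binding.

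The sequences are from RefSeq on GRCm38.p6, 270 bases 5′ to 3′ on the strand of the gene, which is 250 before and 20 after the start. Capitals mark the E2F core. Ezh2 (chr6:47595011-47595280, minus strand) has the first base of the motif at 5 from its start, Suz12 (chr11:79992856-79993125, plus strand) at -218, Kmt5a (chr5:124439680-124439949, plus strand) at -37 and Prmt1 (chr7:44986401-44986670, minus strand) at -215. Eed (chr7:89980957-89981226, minus strand), called higher, is 1 of the 19 promoters of higher genes without it. The motif is also not in those of the called lower genes Ezh1 (chr11:101226444-101226713, minus strand) and Hdac4 (chr1:92180322-92180591, minus strand). Kmt5a has other RefSeq promoters, and none of those holds the motif.
Ezh2: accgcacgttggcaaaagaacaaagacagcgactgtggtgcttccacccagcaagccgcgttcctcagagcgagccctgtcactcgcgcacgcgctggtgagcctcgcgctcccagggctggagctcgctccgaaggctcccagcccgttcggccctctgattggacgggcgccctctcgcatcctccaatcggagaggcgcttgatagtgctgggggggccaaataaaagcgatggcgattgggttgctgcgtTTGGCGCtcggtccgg
Suz12: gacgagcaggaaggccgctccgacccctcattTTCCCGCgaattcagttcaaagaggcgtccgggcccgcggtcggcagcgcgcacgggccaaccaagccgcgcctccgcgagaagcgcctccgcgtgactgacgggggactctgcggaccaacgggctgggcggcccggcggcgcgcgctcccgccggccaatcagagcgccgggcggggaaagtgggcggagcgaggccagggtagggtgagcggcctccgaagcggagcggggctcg
Eed: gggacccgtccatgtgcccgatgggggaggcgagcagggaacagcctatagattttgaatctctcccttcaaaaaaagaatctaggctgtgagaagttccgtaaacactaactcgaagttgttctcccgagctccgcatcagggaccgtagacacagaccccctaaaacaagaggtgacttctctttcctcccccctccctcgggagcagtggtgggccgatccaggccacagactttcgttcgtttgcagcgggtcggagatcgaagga
Kmt5a: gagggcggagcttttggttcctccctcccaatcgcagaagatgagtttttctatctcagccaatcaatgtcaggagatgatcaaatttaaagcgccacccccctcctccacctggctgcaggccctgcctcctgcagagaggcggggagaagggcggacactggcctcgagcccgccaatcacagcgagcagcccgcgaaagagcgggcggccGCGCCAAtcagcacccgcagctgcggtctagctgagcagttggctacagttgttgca
Prmt1: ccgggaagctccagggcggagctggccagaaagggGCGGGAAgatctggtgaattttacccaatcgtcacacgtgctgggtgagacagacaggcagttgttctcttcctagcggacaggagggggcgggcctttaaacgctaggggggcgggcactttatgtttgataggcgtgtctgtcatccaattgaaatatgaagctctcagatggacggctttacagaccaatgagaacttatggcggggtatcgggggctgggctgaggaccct
Ezh1: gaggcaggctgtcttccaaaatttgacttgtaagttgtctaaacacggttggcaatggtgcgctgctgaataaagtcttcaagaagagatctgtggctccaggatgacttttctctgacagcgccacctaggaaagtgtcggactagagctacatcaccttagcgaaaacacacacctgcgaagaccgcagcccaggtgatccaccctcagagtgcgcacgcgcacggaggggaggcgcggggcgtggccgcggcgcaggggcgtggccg
Hdac4: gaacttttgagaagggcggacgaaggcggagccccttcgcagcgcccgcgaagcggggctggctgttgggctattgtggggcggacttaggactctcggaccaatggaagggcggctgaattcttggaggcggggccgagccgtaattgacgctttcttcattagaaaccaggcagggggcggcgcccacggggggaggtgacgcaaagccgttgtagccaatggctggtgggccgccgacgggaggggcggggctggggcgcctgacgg

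The readers of Polycomb and heterochromatin marks split by gene. Among the Cbx proteins that bring Polycomb complex 1 to the PRC2 mark, Cbx2 was called higher, Cbx6 lower and Cbx7 not at all. Cbx8 was not above background on any array. For Cbx2 the log2 signal was -2.33, -1.80, -3.100 and -1.66 on basal and -0.32, -0.47, -0.39 and -0.43 on injured arrays. The groups did not overlap, and Cbx2 rose by 1.82 ± 0.29 (adjusted p = 0.000873), or by 0.78 with normexp. Cbx6 had 2.98, 3.31, 3.71 and 3.41 on basal and 1.31, 1.64, 1.52 and 1.62 on injured arrays. All injured arrays were below the basal arrays, and Cbx6 fell by 1.83 ± 0.17 (adjusted p = 6.28e-05). Its other probes had differences of -0.79 ± 0.26, also called, and -0.06 ± 0.18, not called. Cbx7 ranged from -2.15 to -1.33 on basal and from -2.77 to -0.60 on injured arrays, where injured 4 was the highest of all 8. Its difference of -0.37 ± 0.45 (adjusted p = 0.503) was not called, and without injured 4 it was -0.83 and called (adjusted p = 0.0304).

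The HP1 proteins bind a methylated lysine of histone H3 in compact heterochromatin. Cbx3 (HP1 gamma) had a log2 signal of 3.84, 3.30, 3.24 and 3.11 on basal and 4.72, 4.84, 4.78 and 4.53 on injured arrays. Cbx5 (HP1 alpha) had 3.13, 3.12, 3.08 and 2.94 and 4.23, 4.32, 4.38 and 4.23. Both were higher on every injured array than on any basal array, by 1.35 ± 0.18 (adjusted p = 0.000302) and 1.22 ± 0.11 (adjusted p = 5.36e-05), and a second probe of each gene was called higher too. Cbx1 (HP1 beta) differed by -0.21 ± 0.21 (adjusted p = 0.408) and its groups overlapped.

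Among the SET domain genes, named for the fold that transfers methyl groups to lysines, Kmt5a had a large rise and Setd4 a large fall. Of the 9 tested, 2 were called higher and 3 lower. Kmt5a adds a single methyl group to a lysine of histone H4 and is known for its part in DNA replication and chromosome condensation. Its log2 signal was 2.92, 1.76, 0.46 and 1.03 on basal 1 to 4 and 4.75, 4.86, 4.73 and 4.50 on injured 1 to 4. The injured arrays were close to each other and all above the basal arrays, which spread widely with basal 1 highest and basal 3 lowest. Kmt5a rose by 3.17 ± 0.46, or 8.99-fold (adjusted p = 0.000512), and its second probe by 2.75 ± 0.41. In the authors' deposited table it rose by 1.44, less than Hdac2 (2.34), Suz12 (2.29) and Cbx2 (2.27) did there. Its brightest probe spans 3350 bases of the genome (chr5:124897355-124900704 on mm9, plus strand, from the array files), so that its 60 bases cross at least 1 intron and match spliced RNA.
Kmt5a: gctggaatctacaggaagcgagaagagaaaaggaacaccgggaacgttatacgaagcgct

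Setd4 was at 0.44, 0.88, 1.498 and -0.06 on basal and -1.39, -1.86, -2.10 and -1.27 on injured arrays. The groups were apart, and Setd4 fell by 2.35 ± 0.34 (adjusted p = 0.000493), with a difference of -1.41 under normexp. Setd7, which methylates histone H3 and other proteins, fell by 0.60 ± 0.13 (adjusted p = 0.00374), with no overlap between groups. In the authors' deposited table the sign turned for Setd7 (0.60) and for Setd5 (0.65), given next. Setd5 was at 1.80, 1.83, 1.23 and 0.86 on basal and 0.66, 0.64, 0.70 and 0.82 on injured arrays. Basal 4, at 0.86, was close to injured 4, at 0.82, and the difference of -0.72 ± 0.22 (adjusted p = 0.0213) was not called without basal 2 (adjusted p = 0.0512), injured 1 (0.0519) or injured 2 (0.0526). Setd6, which methylates a subunit of NF-kappaB, was at 1.29, 0.47, 1.501 and 1.22 on basal and 2.13, 2.20, 2.07 and 1.47 on injured arrays. Its groups overlapped through injured 4, and its rise of 0.85 ± 0.26 (adjusted p = 0.0191) was not called without injured 1 (adjusted p = 0.0521) or injured 2 (0.0543). Setd1a, Setd2, Setd3 and Setdb1 were not called, with differences of 0.06, -0.20, 0.62 and 0.26. Of these, Setd3, which methylates actin, was called without basal 4 at 0.82 (adjusted p = 0.0106). Setdb2 was above background on 2 basal arrays and 1 injured array and was not tested.

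All 7 arginine methyltransferases tested had a difference above 0, and 5 were called higher; in the authors' deposited table Prmt6 was at -0.24. They transfer methyl groups to arginines of histones and of proteins that bind RNA. Prmt1, the main enzyme of asymmetric dimethylation, was at 4.47, 4.10, 3.59 and 3.36 on basal and 6.20, 6.14, 6.19 and 6.04 on injured arrays. Prmt5, the main enzyme of symmetric dimethylation, was at 2.68, 2.22, 1.08 and 1.65 on basal and 3.65, 3.67, 3.67 and 3.51 on injured arrays. In both, the injured arrays were tightly grouped above every basal array, and basal 1 was the highest basal array. Prmt1 rose by 2.26 ± 0.23 (adjusted p = 9.88e-05) and Prmt5 by 1.72 ± 0.31 (adjusted p = 0.00151), and a second Prmt1 probe rose by 2.45 ± 0.33.

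Prmt7, which adds single methyl groups, was at 0.50, 0.40, -0.43 and 0.12 on basal and 1.65, 1.53, 1.52 and 1.21 on injured arrays. Prmt2 was at 0.75, 0.69, 0.42 and 0.74 on basal and 1.73, 1.94, 1.96 and 1.87 on injured arrays. Neither gene's groups overlapped, and they rose by 1.33 ± 0.22 (adjusted p = 0.000907) and 1.23 ± 0.13 (adjusted p = 0.000101). Prmt6 rose by 0.59 ± 0.15 (adjusted p = 0.00887), and its injured arrays lay above its basal arrays. A dimmer Prmt6 probe, above background on no basal and 3 injured arrays, was called higher too. Prmt9 differed by 0.34 ± 0.13 (adjusted p = 0.0503) with groups apart, and Prmt3, which acts on a ribosomal protein, by 0.54 ± 0.23 (adjusted p = 0.0674) with basal 2 among the injured values. Without basal 2, Prmt3 was called at 0.75 (adjusted p = 0.00543) and Prmt9 at 0.40 (0.0393). Prmt8, known as a brain enzyme, was above background on 2 basal arrays and 1 injured array and was not tested.

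**Figure D2:**
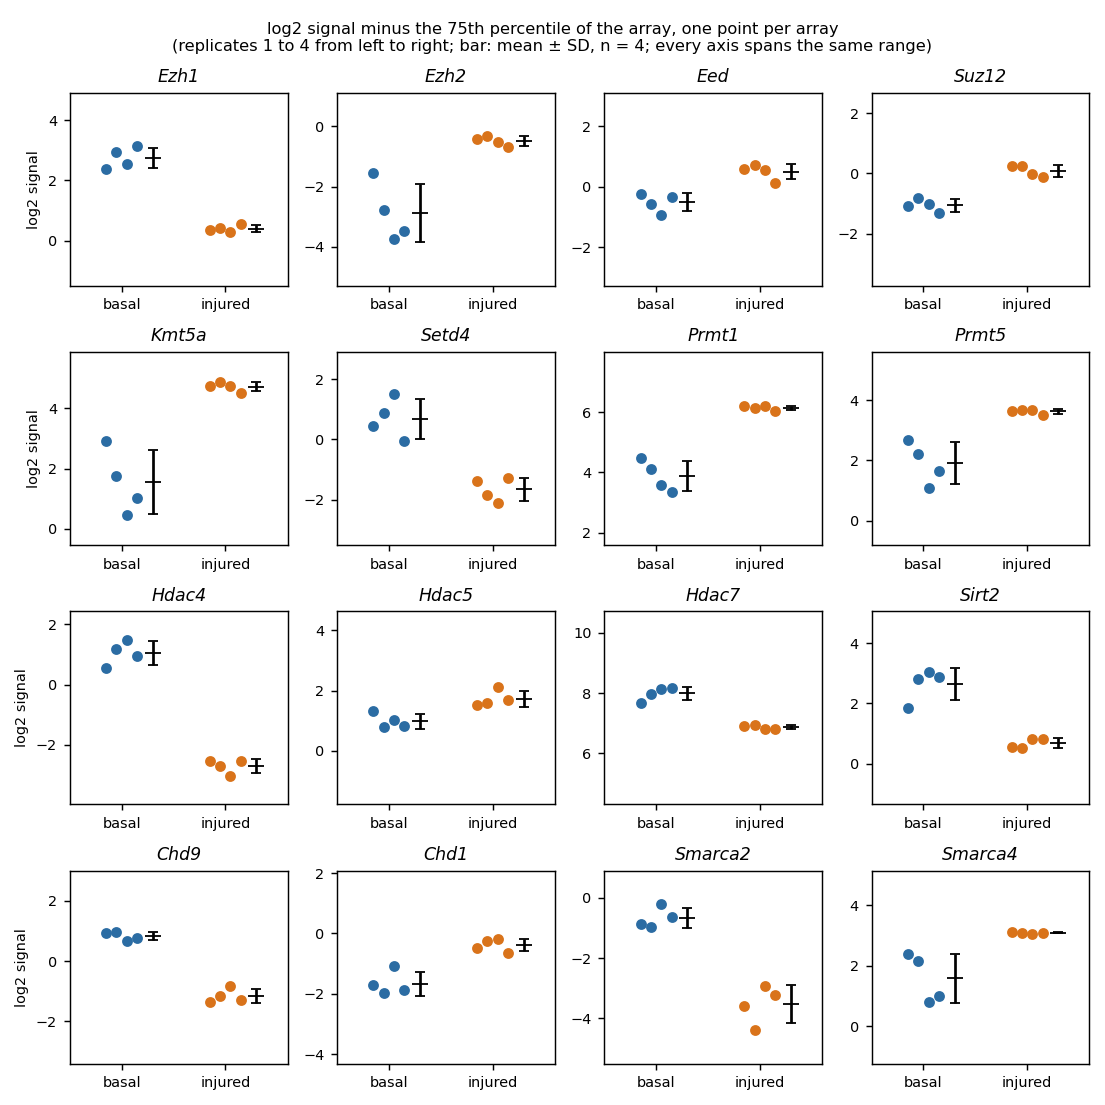
Log2 signal minus the 75th percentile of the array for 16 genes, 1 point per array (blue: basal, orange: injured, replicates 1 to 4 from left to right), with mean and SD (n = 4) as bars and axes of equal span. Ezh1, Hdac4, Hdac7, Sirt2, Chd9, Smarca2 and Setd4 lie lower on every injured array, and the other 9 genes lie higher.

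Among the histone deacetylases, class I and class IIa changed in both directions. Class I enzymes are mainly nuclear, and Hdac1, Hdac2 and Hdac3 act in corepressor complexes. Of the 4 class I genes tested, 3 were called higher and Hdac8 lower. Hdac1, a catalytic subunit of the NuRD, Sin3 and CoREST complexes, was at 0.77, 0.69, 0.62 and 0.33 on basal and 1.48, 1.46, 1.44 and 1.31 on injured arrays. Hdac2, its close relative in the same complexes, was at -0.55, 0.07, 0.35 and 0.36 and 1.36, 1.55, 1.38 and 1.27. Both had all injured arrays above the basal arrays, and rose by 0.82 ± 0.13 (adjusted p = 0.000867) and 1.33 ± 0.21 (adjusted p = 0.000798). The other Hdac1 probes gave 0.58 ± 0.12, called, and 0.04 ± 0.11, not called. Hdac3, the deacetylase of a nuclear receptor corepressor complex, was at -1.78, -1.56, -1.63 and -1.96 on basal and -0.75, -0.78, -0.64 and -0.70 on injured arrays. Its groups were apart and it rose by 1.01 ± 0.13 (adjusted p = 0.000252).

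Hdac8 lies on the X chromosome. Its log2 signal was 1.53, 1.35, 0.32 and 1.88 on basal and 0.32, -0.13, 0.31 and 0.21 on injured arrays. Basal 3 was only just above injured 1, and Hdac8 fell by 1.09 ± 0.31 (adjusted p = 0.0145). A second probe, above background on 3 basal and 2 injured arrays, was called lower too. Against injured 1 alone, with Xist at 1.72 beside 3.85 and 2.15 on basal 1 and 2, the difference was -0.95. Hdac8 was not called without basal 1 and 2 (-0.92, adjusted p = 0.0843) or in the authors' deposited table (-0.37, adjusted p = 0.434).

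Class IIa deacetylases bind the Mef2 factors and are known to hold muscle genes silent. Of 3 tested, Hdac4 and Hdac7 were lower and Hdac5 higher, and Hdac9 was above background on no array. Hdac4 was at 0.55, 1.18, 1.49 and 0.94 on basal and -2.54, -2.68, -3.04 and -2.55 on injured arrays. The injured values were far below the basal ones, and Hdac4 fell by 3.74 ± 0.22, or 13.4-fold (adjusted p = 7.99e-06). Hdac4 was above background on only 1 injured array, so it passed the filter through the basal arrays. The size of its fall rests on dim injured values, and its call is no further support. Under normexp its difference was -1.88, beside -1.93 for Ezh1, and in the authors' deposited table it was -1.52. Hdac5 was at 1.32, 0.78, 1.01 and 0.84 on basal and 1.54, 1.58, 2.11 and 1.70 on injured arrays. The groups were apart with basal 1 the highest basal array, and Hdac5 rose by 0.74 ± 0.18 (adjusted p = 0.00671). Hdac7 was at 7.67, 7.99, 8.15 and 8.16 on basal and 6.90, 6.94, 6.81 and 6.82 on injured arrays. All injured arrays lay lower, and Hdac7 fell by 1.13 ± 0.14 (adjusted p = 0.000246).

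No class IIb or IV deacetylase was called higher. Hdac11, the only class IV enzyme, was at -1.27, -0.96, -0.28 and 0.15 on basal and -2.502, -3.78, -1.80 and -1.94 on injured arrays, and was above background on 3 of the injured arrays. The groups did not overlap although both spread widely, and Hdac11 fell by 1.92 ± 0.48 (adjusted p = 0.00776), with a difference of -0.69 under normexp. Hdac10, a polyamine deacetylase, was at 0.91, 1.46, 1.40 and 1.15 on basal and 0.36, 0.09, 0.35 and 0.29 on injured arrays. It was lower on all injured arrays and fell by 0.96 ± 0.15 (adjusted p = 0.000875), and a second probe fell by 0.46 ± 0.14. In the authors' deposited table the sign turned for Hdac11 (0.33) and Hdac10 (0.12). Hdac6, the X-linked cytoplasmic tubulin deacetylase, had injured arrays of 2.76 to 2.90 above basal arrays of 2.43 to 2.74, but its difference of 0.27 ± 0.12 was not called (adjusted p = 0.089). It was called without basal 1 at 0.32 (adjusted p = 0.0481), and a probe shifted by a few bases was called at 0.38 ± 0.13.

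The sirtuins, deacetylases and deacylases that consume NAD, moved little apart from Sirt2. Of 6 tested, 1 was called higher, 1 lower and 4 not at all, and Sirt5 was above background on 2 basal and no injured arrays. Sirt2, a mainly cytoplasmic deacetylase of tubulin and other proteins, was at 1.85, 2.80, 3.04 and 2.89 on basal and 0.56, 0.53, 0.83 and 0.82 on injured arrays. Basal 1 was the lowest basal array yet above all injured arrays, and Sirt2 fell by 1.96 ± 0.26, or 3.89-fold (adjusted p = 0.000303). Sirt6, a chromatin-bound enzyme of DNA repair and telomeres, was at 1.47, 1.15, 1.12 and 1.34 on basal and 1.90, 1.91, 1.66 and 1.62 on injured arrays. The groups were apart, and Sirt6 rose by 0.50 ± 0.14 (adjusted p = 0.0122), with a second probe at 0.62 ± 0.12. The difference of Sirt1 had a 95% interval of -0.74 to 0.26, that of mitochondrial Sirt3 -0.47 to 0.71, that of mitochondrial Sirt4 -0.43 to 0.24 and that of nucleolar Sirt7 -0.60 to 0.46. A log2 difference of 1 in either direction was thus outside the intervals of these 4 genes, which hold for 1 probe each and for this scaling. In the authors' deposited table Sirt3 was at 1.15 and Sirt7 at 1.05, beyond 1 though not called, and Sirt1 was at 0.09 and Sirt4 at 0.61.

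The CHD remodellers, ATPases with paired chromodomains in most members, changed in both directions. Of 9 tested, 4 were called higher and 4 lower. The groups did not overlap for any of the 9, nor for 57.2% of all genes. Chd5 was above background on no array. Chd1, which binds methylated histone H3 at active promoters, was at -1.70, -1.98, -1.09 and -1.87 on basal and -0.47, -0.25, -0.19 and -0.64 on injured arrays. Its relative Chd2 was at 2.03, 2.33, 2.62 and 2.20 on basal and 1.42, 1.496, 1.53 and 1.39 on injured arrays. Chd1 was higher on all injured arrays, by 1.27 ± 0.21 (adjusted p = 0.00109), and Chd2, lower on all of them, fell by 0.83 ± 0.15 (adjusted p = 0.00142), as did 3 other Chd2 probes. Chd1l, which responds to DNA damage, was at 1.13, 0.76, 0.03 and 0.70 on basal and 1.77, 1.74, 1.75 and 1.603 on injured arrays. Its groups were apart and it rose by 1.06 ± 0.22 (adjusted p = 0.00308).

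Chd3 and Chd4 are alternative ATPases of the NuRD complex, which joins remodelling to Hdac1 and Hdac2. Chd3 was at 1.24, 0.37, -0.55 and 0.45 on basal and 1.58, 1.44, 2.28 and 2.07 on injured arrays. Chd4 was at 4.03, 3.93, 3.90 and 3.64 on basal and 4.28, 4.31, 4.36 and 4.34 on injured arrays. Both were higher on every injured array, Chd3 by 1.47 ± 0.36 (adjusted p = 0.00766) with a wide basal spread and Chd4 by 0.45 ± 0.12 (adjusted p = 0.0126). With quantile normalization the rise of Chd4 was 0.10 and not called (adjusted p = 0.456). In the third subfamily, Chd6, Chd7 and Chd9 were called lower. Chd9 was at 0.92, 0.98, 0.68 and 0.75 on basal and -1.35, -1.14, -0.83 and -1.27 on injured arrays. All injured arrays lay far below, and Chd9 fell by 1.98 ± 0.15 (adjusted p = 2.42e-05), with a difference of -1.25 under normexp. Chd6 fell by 0.86 ± 0.12 (adjusted p = 0.000495) and Chd7, the remodeller mutated in CHARGE syndrome, by 0.84 ± 0.11 (adjusted p = 0.000388). In the authors' deposited table the sign turned for Chd6 (0.47) and Chd7 (0.31). Chd8 differed by -0.25 ± 0.11 (adjusted p = 0.0853) and was not called, although its injured arrays of 2.63 to 2.75 lay below its basal arrays of 2.82 to 3.08. With quantile normalization Chd8 was called lower at -0.52 (adjusted p = 0.00732).

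The SWI/SNF complexes showed opposite differences of their alternative ATPases. Of 9 genes, 3 were called higher and 2 lower by their brightest probes, and Smarcc1 was lower by that probe only. Smarca4 (Brg1) was at 2.39, 2.17, 0.79 and 0.98 on basal and 3.13, 3.09, 3.07 and 3.103 on injured arrays. The injured arrays were nearly equal and above all basal arrays, of which basal 1 and basal 2 were the closest to them. Smarca4 rose by 1.51 ± 0.35 (adjusted p = 0.00582), and a second probe by 1.42 ± 0.22. Smarca2 (Brm) was at -0.88, -0.98, -0.22 and -0.63 on basal and -3.59, -4.39, -2.92 and -3.21 on injured arrays, and above background on no injured array. It was called lower (adjusted p = 0.000141), but passed the filter through the basal arrays only, so its call is no further support. A bound that was not itself tested put it at least 5.50-fold lower in injured samples. For that bound, each injured array took the dimmest signal still above background, or the probe's own where that is higher.

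Of the shared subunits, Smarce1 (Baf57) was at 3.16, 2.95, 2.68 and 2.93 on basal and 4.36, 4.38, 4.25 and 4.13 on injured arrays. Smarcb1 (Snf5), a core subunit and tumour suppressor, was at -0.91, -1.13, -1.08 and -1.27 on basal and -0.12, -0.32, -0.33 and -0.11 on injured arrays. Both were higher on all injured arrays, by 1.35 ± 0.14 (adjusted p = 9.60e-05) and 0.88 ± 0.13 (adjusted p = 0.000544). The Baf60 subunits Smarcd1, Smarcd2 and Smarcd3 were not called, with overlapping groups and 95% intervals of -0.43 to 0.60, -0.42 to 0.68 and -0.33 to 0.21. Smarcd3 (Baf60c), known as a partner of Myod1, ranged from 1.63 to 1.92 on basal and 1.61 to 1.80 on injured arrays. Smarcd1 (Baf60a) ranged from -1.42 to -0.32 on basal and -0.82 to -0.58 on injured arrays. The scaffold Smarcc2 (Baf170) was at 2.19, 2.17, 2.91 and 3.03 on basal and 2.25, 2.38, 2.25 and 2.32 on injured arrays. Its injured values lay within its basal range, and its difference of -0.28 ± 0.22 was not called (adjusted p = 0.3).

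The direction of Smarcc1 (Baf155), the other scaffold, depended on the probe. Its brightest probe was at 9.001, 8.84, 8.84 and 8.96 on basal and 8.44, 8.39, 8.41 and 8.69 on injured arrays. The groups were apart, and this probe fell by 0.43 ± 0.12 (adjusted p = 0.014). A probe that crosses an exon junction rose by 1.54 ± 0.23, another rose by 2.18 ± 0.31, and the fourth differed by 0.19 ± 0.34 and was not called. The mean of all 4 probes rose by 0.87 (adjusted p = 0.00126), so no direction is given for the gene. The junction probe, shown because it reads spliced Smarcc1 RNA, spans 8308 bases (chr9:110116115-110124422 on mm9, plus strand, from the array files).
Smarcc1: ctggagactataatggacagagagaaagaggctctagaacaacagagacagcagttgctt

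Of the ISWI ATPases, which space nucleosomes evenly, Smarca5 (Snf2h) was at -1.95, -2.72, -3.19 and -2.33 on basal and -1.10, -1.25, -1.41 and -1.33 on injured arrays. Only 2 basal arrays were above background, all injured arrays were higher, and Smarca5 rose by 1.28 ± 0.25 (adjusted p = 0.00243), or by 0.44 with normexp. Smarca5 passed the filter through the injured arrays only, so its call is no further support. Its X-linked relative Smarca1 (Snf2l) was above background on injured 1 and on no other array, and was not tested. Smarcad1 was above background on no array. Smarcal1, which reanneals DNA at stalled replication forks, differed by -0.60 ± 0.33 (adjusted p = 0.152), and neither it nor its 2 other tested probes were called.

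**Figure D3:**
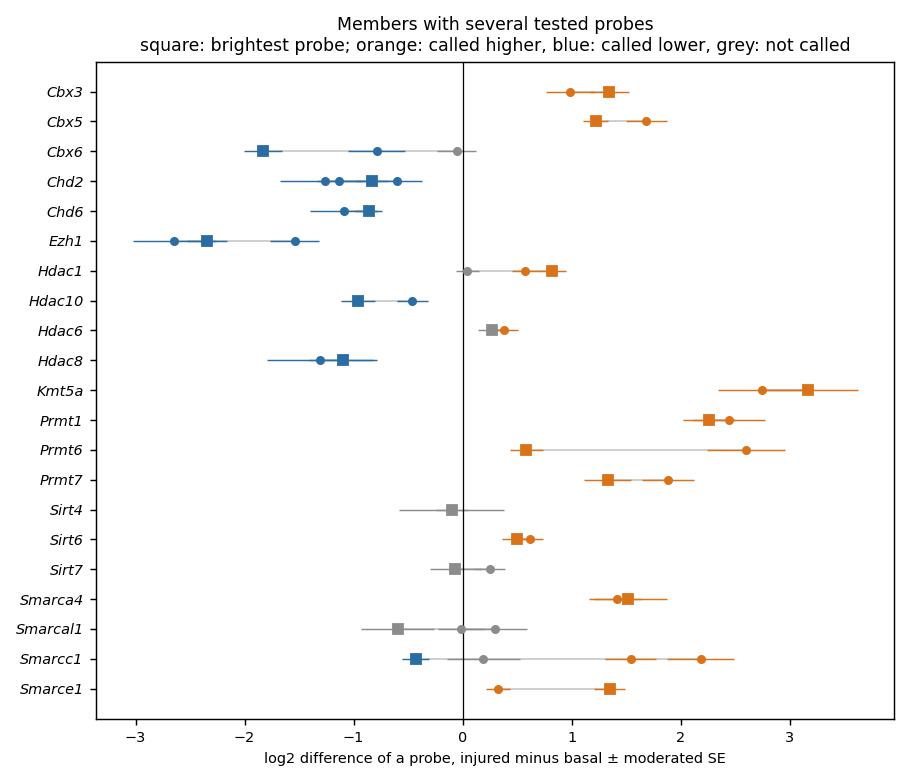
Log2 difference, injured minus basal, with its moderated SE for each tested probe of the 21 genes with several tested probes (square: brightest probe, circles: other probes, colours as for calls: orange higher, blue lower, grey not called). For 18 genes the probes share their sign, and Smarcc1 has probes called in both directions. A circle each of Chd6, Ezh1, Hdac8 and Prmt6 is of a probe above background on under 3 arrays of a group.

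Over the 92 tested probes of these genes, 65 were called, or 70.7%, beside 56.9% of all 31315 probes tested. Of 21 genes with several tested probes, 14 had every probe called in the same direction. In 4 genes the probes differed in whether they were called, and in 1, Smarcc1, probes were called in opposite directions. The probes of 18 genes had the same sign. Of the 50 tested probes of these 21 genes, 4 passed the filter through 1 group only, in Chd6, Ezh1, Hdac8 and Prmt6, so their calls are no further support. Sizes also varied where both probes were above background on all arrays, as in Smarce1, with 1.35 and 0.33.

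Related genes were compared directly as the log2 ratio of 1 to the other on each array, by an exact two-sided permutation test over the 8 arrays. The smallest p this design can give is 0.0286, reached where the ratios of the groups did not overlap. In 5 of the 10 usable pairs they did not (exact p = 0.0286 in each), and with Benjamini-Hochberg adjustment over the pairs that p became 0.0572, so no pair passed the threshold. The ratio of Ezh2 to Ezh1 was -3.94, -5.69, -6.27 and -6.59 on basal 1 to 4 and -0.76, -0.74, -0.80 and -1.24 on injured 1 to 4, a change of 4.74, or 2.85 under normexp with the 75th percentile. The ratio of Hdac4 to Hdac5 changed by -4.49 (-2.53 under normexp), and that of Smarca4 to Smarca2 by 2.29 under normexp. Ezh2, Hdac4 and Smarca2 passed the filter through 1 group only, so the sizes of these 3 changes rest on dim values and their p supports nothing further. The ratio of Cbx2 to Cbx7 changed by 2.19 (0.85 under normexp) and that of Chd1 to Chd2 by 2.11 (1.49 under normexp). Since the level of a probe is not that of another, only the change of a ratio is read here, not its value. The ratio of Chd4 to Chd3 changed by -1.02 (exact p = 0.0571, adjusted 0.0952) and that of Hdac1 to Hdac2 by -0.52 (exact p = 0.114, adjusted 0.163).

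In 3 pairs the change was smaller than the SD of the arrays around their group means. The ratio of Cbx5 to Cbx3 changed by -0.13 (SD 0.20, exact p = 0.400), that of Smarcc1 to Smarcc2 by -0.15 (SD 0.35, exact p = 0.543) and that of Smarcd1 to Smarcd3 by 0.15 (SD 0.31, exact p = 0.714). With all probes of each gene averaged, the ratio of Smarcc1 to Smarcc2 changed by 1.15. Smarca5 with Smarca1 and Setdb1 with Setdb2 could not be compared because the second gene was not tested, nor Setd1a with Setd1b, which has no probe under that name.

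**Figure D4:**
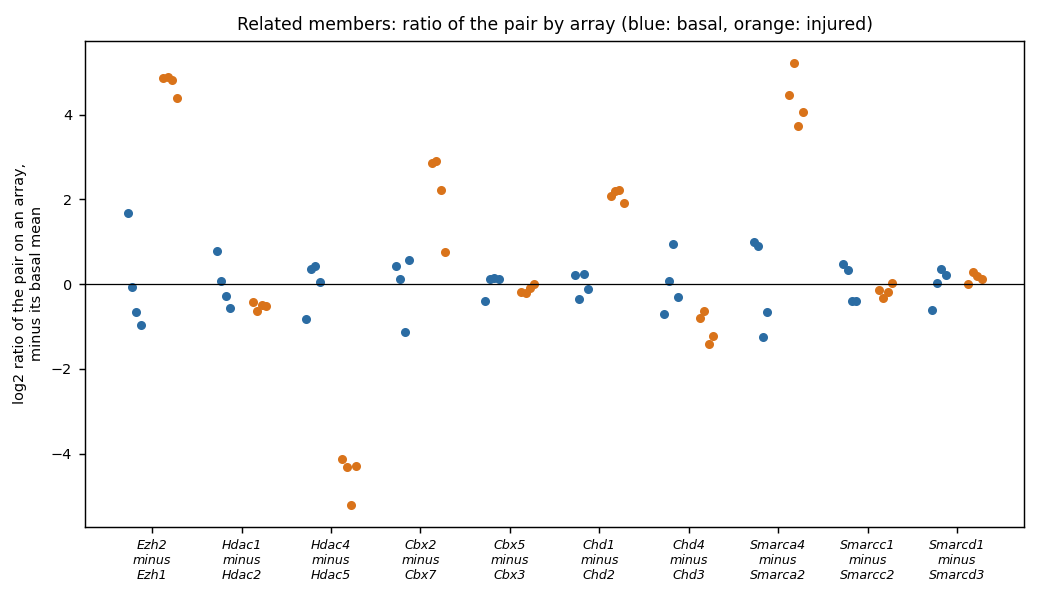
Log2 ratio of 2 related genes on each array, minus its mean over the basal arrays, for the 10 usable pairs (blue: basal, orange: injured, 1 point per array, replicates 1 to 4 from left to right). The groups lie apart for Ezh2 with Ezh1, Hdac4 with Hdac5, Cbx2 with Cbx7, Chd1 with Chd2 and Smarca4 with Smarca2, and overlap for the other 5 pairs. Ezh2, Hdac4 and Smarca2 were above background on at most 1 array of a group, so the distances in their pairs rest on dim values.

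The basal arrays differed among themselves more than the injured arrays did. The median SD over the 63 genes was 0.35 on basal and 0.13 on injured arrays, against 0.34 and 0.17 for all genes. The basal SD was the larger one for 54 of the 63 genes (85.7%), where it was for 79.5% of all genes. Of the 26 genes called higher, 20 had their highest basal value on basal 1, and of the 17 called lower, 9 had their lowest basal value there. The same shares were not counted over all called genes, so these are not read as a trait of the chromatin genes. As a median over the genes called higher, the deviation from each gene's mean was -0.24, -0.56, -0.83 and -0.67 on basal 1 to 4 and 0.59, 0.70, 0.68 and 0.52 on injured 1 to 4. For 7 tested proliferation markers it was -0.10, -1.04, -3.77 and -2.25 on basal and 1.72, 1.91, 1.75 and 1.48 on injured arrays. Basal 1 was thus nearest to the injured arrays in both sets of genes. All 7 were called higher. With the list's other marker, which was not tested, the 8 had summed signals of 2.05 to 37.4 on basal and 73.6 to 90.4 on injured arrays, and their part in the results was not tested.

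**Figure D5:**
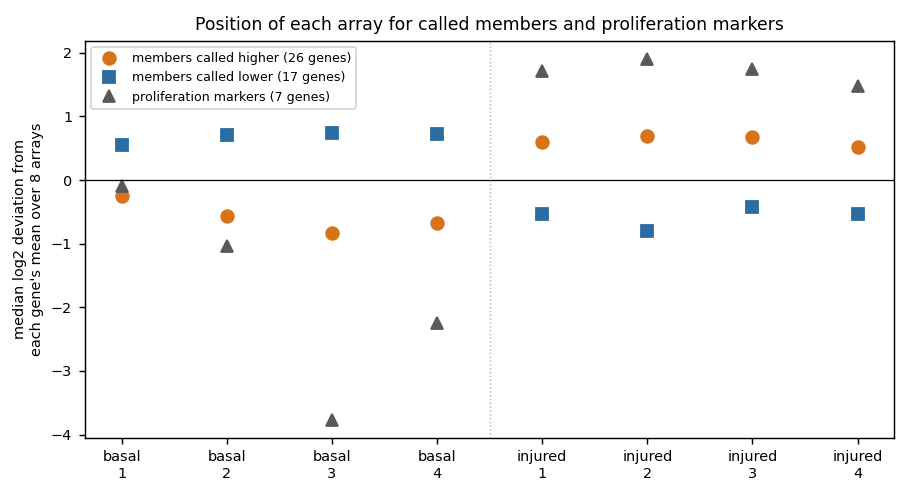
Median log2 deviation from each gene's mean over the 8 arrays, by array, for the 26 genes called higher (orange circles), the 17 called lower (blue squares) and 7 proliferation markers (grey triangles). Among basal arrays, basal 1 lies nearest to the injured arrays in all 3 sets, and basal 3 lies farthest away.

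Markers of other cells moved with the groups too. Summed signals, in units of the 75th percentile signal, were 55.9 to 85.0 on basal and 6.40 to 9.22 on injured arrays for 7 fibro-adipogenic markers, of which 4 were called lower and Pdgfra was above background on no array. They were 22.7 to 41.4 and 9.54 to 11.8 for 8 endothelial markers (2 lower, 1 higher), 12.9 to 16.3 and 4.45 to 8.37 for 7 pericyte markers (5 lower), and 9.84 to 35.8 and 7.81 to 9.71 for 5 Schwann cell markers (3 lower, 1 higher). For 8 macrophage and leukocyte markers (1 lower, 1 higher) the ranges overlapped, at 474 to 541 and 493 to 585. The 6 markers of differentiating myocytes were all called higher, at 0.857 to 6.72 and 20.3 to 62.3, and 7 mature fibre markers had 5.88 to 11.4 and 17.2 to 43.4 with 1 of 2 tested called. The part of these cells in the values of the chromatin genes was not tested.

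Partners of these enzymes that the name rule leaves out were read from lists of 154 genes, of which 136 were tested. In all, 47 were called higher (34.6%) and 35 lower (25.7%), next to 35.3% and 24.8% of all genes, with a median difference of 0.07. The shares differed from list to list, and what follows gives each list's counts beside its genes with the largest called differences. A gene given as above background on under 3 arrays of a group passed the filter through the other group only. The call of such a gene is no further support.

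Among 8 accessory subunits of PRC2, 5 were higher and 2 lower. Epop rose by 1.89 ± 0.44 and Phf19, which binds a methylated lysine of active genes, by 1.71 ± 0.32, both above background on only 2 basal arrays. Rbbp4, a histone chaperone, rose by 1.04 ± 0.13, and Jarid2, which recruits PRC2, fell by 2.41 ± 0.21 (adjusted p = 4.10e-05). Phf1, above background on 2 injured arrays, fell by 1.29 ± 0.39 with overlapping groups. Of 13 genes of Polycomb complex 1, 5 were higher and 2 lower, led by Kdm2b, which binds unmethylated CpG, at 1.65 ± 0.19, Yaf2 at 1.09 ± 0.37 and Phc2 at 0.69 ± 0.23. Ring1, a ubiquitin ligase of that complex, was lower at -0.78 ± 0.21 and Scmh1 at -0.74 ± 0.27.

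Of 23 other histone methyltransferases, 12 were lower and 6 higher. Kmt2c fell by 2.21 ± 0.18 (adjusted p = 3.34e-05), Kmt5b by 1.96 ± 0.24 and Kmt2e by 1.68 ± 0.18. Kmt5b adds further methyl groups to the mark that Kmt5a begins, and Kmt5a was higher. Suv39h1, which makes the mark that HP1 binds, rose by 2.02 ± 0.23, the muscle gene Smyd1 by 1.74 ± 0.22 and Smyd5 by 1.18 ± 0.33. Of 6 core subunits of the COMPASS methyltransferases, 4 were higher and none lower, with Ash2l at 1.47 ± 0.21, Wdr5 at 1.35 ± 0.22 and Cxxc1 at 0.66 ± 0.17. Of 16 lysine demethylases, 7 were lower and 2 higher. Kdm6b, which removes the PRC2 mark, fell by 2.47 ± 0.39 (adjusted p = 0.00084), Kdm5b by 1.15 ± 0.18 and Kdm3b, above background on only 1 injured array, by 1.21 ± 0.27. Kdm1a, the demethylase of CoREST, rose by 0.97 ± 0.14 and Kdm5c, which is X-linked, by 0.63 ± 0.24 with overlapping groups.

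Of 12 histone acetyltransferases, 4 were lower and 1 higher. Kat2b, an acetyltransferase that acts with Myod1, fell by 2.30 ± 0.25 (adjusted p = 0.000133), Ncoa1 by 2.22 ± 0.28 and Kat6b by 1.56 ± 0.20. Hat1, which acetylates newly made histones, rose by 1.81 ± 0.18 (adjusted p = 7.39e-05). Of 18 partners of Hdac1, Hdac2 and Hdac3, 9 were higher and 2 lower. Sap30 of the Sin3 complex rose by 3.49 ± 0.43 (adjusted p = 0.00022), Rcor2 by 2.38 ± 0.33 and the NuRD subunit Mta2 by 1.81 ± 0.18. Gatad2b, also of NuRD, fell by 0.74 ± 0.16.

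Of 14 SWI/SNF partners, 3 were higher and 2 lower. Actl6a (Baf53a), the subunit of dividing cells, rose by 2.12 ± 0.21 (adjusted p = 7.81e-05), Dpf2 by 0.81 ± 0.17 and Phf10 by 0.42 ± 0.16 with overlapping groups. Brd7 fell by 1.34 ± 0.19 and Arid1b by 0.39 ± 0.14. Of 21 partners of the ISWI, INO80 and SWR remodellers, 10 were higher and 3 lower. Pole3 rose by 1.95 ± 0.20, Yeats4 by 1.85 ± 0.36 and Ruvbl2 by 1.71 ± 0.20, while Chrac1, which pairs with Pole3, fell by 0.80 ± 0.22 and Bptf by 0.77 ± 0.24. Cecr2 was above background on no injured array and was called lower (adjusted p = 0.000331). It was at least 4.8-fold lower by the bound used for Smarca2, which was not itself tested. Of 5 other remodellers, Ttf2 rose by 2.21 ± 0.33 and Rad54l, which acts in recombination, by 2.03 ± 0.45, and Atrx, an X-linked gene, fell by 1.10 ± 0.24.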

How the data were processed

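The deposited scanner files hold spot intensity. Per the file headers, the authors made them with version 10.7.3.1 of Agilent Feature Extraction, which subtracted background on each array and did not scale arrays to each other. The authors' deposited table holds 8 columns on a log2 scale, as read from its values, with medians of 8.06 to 8.15. The labels' processing notes name limma beside the Agilent software; which steps made the table is not given in the sources used here. It served as an alternative.

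Log2 processed signals of spots other than controls were centred on the 75th percentile of their array. Marked outlier spots (1119) were left out, and repeated spots of a probe were averaged. No spot was saturated. RefSeq gave names by accession for 26300 probes, by symbol for 2044 and by synonym for 355, and 555 kept the array's name. The brightest probe over the 8 arrays stood for its gene. A gene was tested if that probe was flagged well above background by the scanner software on 3 or more of the 4 arrays in 1 group. The test was limma 3.58.1 in R 4.3.3, two-sided, with 6 residual and 2.55 prior degrees of freedom. Of 13646 genes, 8809 had an unadjusted p under 0.05. The fit was tested on simulated data. The number of arrays limits the precision.

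Every gene of the rule is named in its class, apart from an item not reported here. Values for every array are given for PRC2, for up to 4 called genes of each other class with the largest differences and for compared pairs. Of other chromatin genes, up to 3 that rose and 3 that fell are named per list. Xist, Y-linked genes and genes or arrays named for a lost or gained call were added with their values known. The genes and lists were chosen with earlier results of these data known. Alternatives were other normalizations, background corrections, filters, probe summaries and variance options, a block for the replicate number, and fits with arrays left out. Same-numbered arrays did not deviate together (correlations over genes of -0.0012 to 0.0936), so the numbers were not taken as pairs.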

Additional observations from a re-analysis of the deposited data

Results flagged for a closer look

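In 126 sets of 4 arrays, 1 for each of the 63 genes in each group, the highest or lowest array was compared with the others by Dixon's gap test at its 95% critical value. Chance alone marks about 1 set in 20, and 4 sets were marked. Setd7 was low on basal 1, at 1.31 against 1.61 to 1.66 on the other basal arrays. Prmt5 was low on injured 4, at 3.51 against 3.65 to 3.67. Sirt7 was low on basal 2, at 0.50 against 1.37 to 1.54. Smarcc1 was high on injured 4, at 8.69 against 8.39 to 8.44.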

How the results depend on the processing

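Over the alternatives other than the authors' deposited table and injured 1 alone, 25 to 28 of the chromatin genes were called higher and 15 to 19 lower. In all 18 of those alternatives, 38 of the 43 called genes kept their call and direction wherever they were tested; Setd5, Setd6, Hdac8, Chd4 and Smarcc1 did not. Leaving out 1 array at a time gave 25 to 28 higher and 16 to 18 lower chromatin genes, 4197 to 4911 higher and 2989 to 3517 lower of all genes, and 40 to 49 higher and 28 to 38 lower other chromatin genes. Without basal 1 and 2 the chromatin genes gave 28 and 18. With the replicate block, 26 were higher and 17 lower, as without it, and 4561 and 3194 of all genes. No correlation of same-numbered arrays was over 0.1, so the block describes numbers and not a pairing. A slide block was not run, since each slide holds 1 group.

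Without injured 2, 3 and 4, 4 chromatin genes were higher and 5 lower, 756 and 997 of all genes, and 7 and 6 of the other chromatin genes; that fit has fewer arrays. In the authors' deposited table, lower calls numbered 3 among the chromatin genes, 774 among all genes and 1 among the other chromatin genes. There the sign turned for Setd5 (0.65), Setd7 (0.60), Prmt6 (-0.24), Hdac10 (0.12), Hdac11 (0.33), Chd6 (0.47), Chd7 (0.31), Scmh1 (0.79), Suv39h1 (-0.44), Kdm1a (-0.20), Kdm5b (0.44), Rcor2 (-1.02), Brd7 (0.090), Arid1b (0.42), Bptf (0.30) and Atrx (0.19), and the cause was not tested. With the mean of all probes Smarcc1 turned to 0.87. Normexp with the 75th percentile kept all 43 calls and directions and made 13 differences smaller by over 1.5 times, among them Ezh2, Hdac4 and Smarca2; with quantile normalization it kept 42 calls and made 16 smaller. Dim signal limits those sizes.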
